A study of Homo sapiens with 12 samples.

Results

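The receptors described here are 9 genes with known roles in neuroblastoma: the receptor tyrosine kinases ALK, NTRK2, NTRK3, KIT, PDGFRA, PDGFRB, EGFR and ERBB3, and the neurotrophin receptor NGFR. They were taken from a list of symbols, with no threshold on their values, and are 9 of 61552 genes in the deposited table. Their messenger RNA was measured by sequencing in 12 libraries of cultured human neuroblastoma cells, 3 in each of 4 groups. By their labels the groups were SK-N-BE(2) with ML210, SK-N-BE(2) control, SK-N-AS with ML210 and SK-N-AS control. ML210 inhibits GPX4, the enzyme that reduces lipid peroxides in membranes, and was given overnight. The sources used here give no dose and do not say what the controls received. All groups carry the genotype label WT, and SK-N-BE(2) is described as MYCN-amplified and SK-N-AS as not amplified. With 1 line for each status, an effect of MYCN status and one of the line cannot be told apart. Beyond a batch number from 1 to 3, no label states that the libraries are independent cultures; the p-values then reflect the spread among the libraries, which may be technical.

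Receptor tyrosine kinases are membrane proteins that pair when an extracellular ligand binds, phosphorylate each other and recruit adaptors that start RAS-MAPK and PI3K signalling. ALK is activated by point mutation or amplification in a share of neuroblastomas and binds the small proteins ALKAL1 and ALKAL2. The TRK receptors bind neurotrophins: NTRK2 encodes TrkB, the receptor of BDNF, and NTRK3 encodes TrkC, the receptor of NT-3. NGFR encodes p75, which binds all neurotrophins and has no kinase domain. Neuroblastoma cells occur in an adrenergic state, close to sympathetic neurons, and a mesenchymal state, and platelet-derived and epidermal growth factor receptors are known from mesenchymal cells.

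Counted reads per library lay between 54047293 and 83481963. MYCN ran against the line labels, with 0.154 CPM (reads scaled to the size of the library) in BE(2) ML210 and 0.166 CPM in BE(2) control libraries, against 3855 CPM in AS ML210 and 3558 CPM in AS control libraries. The line labels may therefore be exchanged, which these files do not settle, and if they are, every direction between lines given here turns round. Directions are between libraries labelled SK-N-BE(2) and SK-N-AS, named BE(2) and AS by label alone. GPX4 passed the test in none of the 5 comparisons. Of 42 protein-coding genes high under the BE(2) label and at most 3% of that level under the other, the trace left under the AS label was, in the median over genes, 0.362%, 1.19% and 1.77% of the BE(2) level in AS ML210 libraries 1, 2 and 3, and 0.346%, 1.69% and 1.48% in AS control libraries 1, 2 and 3. For 69 genes high under the AS label the medians in the BE(2) libraries lay between 0.256% and 0.525%. As the choice of these genes caps their level at 3%, the medians compare libraries with each other and set no background for a receptor. Bulk libraries cannot tell fewer cells of a type from less RNA per cell.

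ALK was the member with the widest gap between the line labels, and it was low under the label SK-N-BE(2). The gene (ENSG00000171094) lies on the minus strand of chromosome 2, from 29192774 to 29921566 on GRCh38. It stood at 0.228, 0.0964 and 0.113 CPM in BE(2) ML210 libraries 1, 2 and 3 and at 0.0649, 0.110 and 0.167 CPM in BE(2) control libraries, against 14.6, 21.1 and 20.4 CPM in AS ML210 libraries and 13.4, 21.3 and 19.1 CPM in AS control libraries. The labels did not overlap, and batch 1 was the lowest of the AS libraries under both treatments. The BE(2) values rest on 4 to 15 reads per library, or 24 reads (exact 95% Poisson interval 15.4 to 35.7) over the 3 controls. In controls the log2 difference, BE(2) minus AS, was -7.24 (SE 0.325, edgeR quasi-likelihood adjusted p = 3.3e-10), a 152-fold lower level. It was -6.98 (SE 0.317, edgeR adjusted p = 4.05e-10) in ML210 libraries. The BE(2) reads of ALK were 0.355% to 1.25% of the mean AS level, while those of MYCN were 0.00164% to 0.00648%.

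For the 3 receptors with the widest gaps between the line labels, ALK, NTRK3 and PDGFRA, the 250 bases before the first start of transcription in the table are shown, read 5′ to 3′ on the strand of the gene (RefSeq, GRCh38.p14). Both starts of EGFR, the receptor with the highest level, are shown because the second holds motif matches. Capitals mark matches to the AP-1 motif TGACTCA or its reverse complement TGAGTCA. AP-1 is the FOS and JUN dimer, and the E-box CACGTG is the core motif of MYC-family factors. Of the receptors, 7 matched the table.
ALK, chr2:29921587-29921836 (minus strand): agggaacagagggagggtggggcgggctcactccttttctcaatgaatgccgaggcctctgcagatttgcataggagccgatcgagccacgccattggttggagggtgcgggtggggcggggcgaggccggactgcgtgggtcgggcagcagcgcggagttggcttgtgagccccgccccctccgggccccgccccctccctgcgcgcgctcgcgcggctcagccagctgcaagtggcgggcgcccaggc
NTRK3, chr15:88256740-88256989 (minus strand): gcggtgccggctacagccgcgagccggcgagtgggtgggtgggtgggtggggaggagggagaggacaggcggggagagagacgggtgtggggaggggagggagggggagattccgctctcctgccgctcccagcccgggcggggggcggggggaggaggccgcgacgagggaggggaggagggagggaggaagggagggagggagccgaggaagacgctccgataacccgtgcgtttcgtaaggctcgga
PDGFRA, chr4:54229043-54229292 (plus strand): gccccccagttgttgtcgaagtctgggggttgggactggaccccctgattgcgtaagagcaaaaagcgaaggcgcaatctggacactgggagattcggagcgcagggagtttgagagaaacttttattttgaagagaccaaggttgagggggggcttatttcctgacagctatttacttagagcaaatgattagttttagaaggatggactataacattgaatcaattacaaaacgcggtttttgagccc
EGFR, chr7:55018767-55019016 (plus strand): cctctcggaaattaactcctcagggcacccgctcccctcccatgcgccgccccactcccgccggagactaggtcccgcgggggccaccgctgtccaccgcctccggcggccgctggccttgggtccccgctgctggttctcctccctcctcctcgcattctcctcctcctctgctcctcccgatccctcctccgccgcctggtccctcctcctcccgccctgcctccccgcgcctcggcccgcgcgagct
EGFR, the second start, chr7:55109589-55109838 (plus strand): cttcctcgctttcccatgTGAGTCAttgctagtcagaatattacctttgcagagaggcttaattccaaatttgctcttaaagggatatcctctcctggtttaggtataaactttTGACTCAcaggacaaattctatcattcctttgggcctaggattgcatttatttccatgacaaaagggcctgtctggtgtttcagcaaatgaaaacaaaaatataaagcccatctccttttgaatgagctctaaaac

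Base composition differed as much between the starts of 1 gene as between genes. The first ALK start had 71.6% G and C bases and 24 CG dinucleotides, and the second, not shown, 53.6% and 2. The NTRK3 start had 73.2% and 23. The first PDGFRA start had 46.8% and 8, and the second, not shown, 64.0% and 25. The first EGFR start had 73.6% and 25, the second 38.8% and 1, and the PDGFRB start, not shown, 58.4% and 9. The median of all 35116 windows was 58.0% and 11. Of the 13 windows of 7 receptors, the one at the second EGFR start, inside the gene, held 2 AP-1 matches, a motif that 4.20% of all windows hold on either strand. 1 window, at the second start of ALK (chr2:29223824-29224073), held the E-box, which 6.34% of all windows hold. These are letter matches and say nothing of binding.

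Of the neurotrophin receptors, NTRK3 mRNA was far higher under the AS label and low, with 10 to 34 reads per library, under the BE(2) label. NTRK3 (ENSG00000140538, chromosome 15, 87859751 to 88256768, minus strand) stood at 0.304, 0.386 and 0.395 CPM in BE(2) ML210 and 0.162, 0.469 and 0.265 CPM in BE(2) control libraries, against 12.0, 10.9 and 11.1 CPM in AS ML210 and 10.3, 11.4 and 10.0 CPM in AS control libraries. The 6 AS libraries lay close together, and no BE(2) library reached them. The log2 difference was -5.11 (SE 0.253, edgeR adjusted p = 4.89e-10) in controls, 34.6-fold lower, and -4.96 (SE 0.249, edgeR adjusted p = 6.08e-10) with ML210. The BE(2) level was 1.48% to 4.28% of the AS mean.

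NTRK2 (ENSG00000148053, chromosome 9, 84668551 to 85027070, plus strand) was barely detected. It had 4 reads over the 3 BE(2) ML210 libraries and 3 over the BE(2) controls, against 2 over the AS ML210 libraries and 8 over the AS controls. The most in any library was 6 reads, in AS control 1, and 7 of the other libraries had none. A count of 3 reads, chosen as the floor, equals 0.0390 to 0.0590 CPM in these libraries, so levels below it rest on very few reads. TrkB mRNA did not pass the filter on low counts, and no difference was tested.

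NGFR (ENSG00000064300, chromosome 17, 49495293 to 49515017, plus strand) was low under both labels and was the least stable of the differences. It stood at 2.35, 3.10 and 3.73 CPM in BE(2) ML210 and 4.50, 5.12 and 4.47 CPM in BE(2) control libraries, against 1.46, 2.70 and 2.47 CPM in AS ML210 and 1.57, 3.59 and 2.81 CPM in AS control libraries. All BE(2) controls lay above all AS controls, whereas the ML210 libraries of the labels overlapped. The log2 difference was 0.82 (SE 0.290, edgeR adjusted p = 0.0212) in controls and 0.46 (SE 0.294, edgeR adjusted p = 0.176) with ML210. The control call was lost without AS control 1 (0.55, edgeR adjusted p = 0.0864) and without BE(2) control 2 (0.78, edgeR adjusted p = 0.0504). With batch 1 as the only AS libraries the differences were 1.57 in controls and 1.07 with ML210 (edgeR adjusted p = 0.0017 and 0.0159).

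PDGFRA was the member with the widest gap in the other direction, high under the BE(2) label. It encodes the receptor of PDGF-A and PDGF-C homodimers, also binds PDGF-B, and lies on chromosome 4 (ENSG00000134853, 54229097 to 54298247, plus strand). It stood at 51.0, 87.9 and 57.8 CPM in BE(2) ML210 and 82.0, 93.8 and 59.6 CPM in BE(2) control libraries, against 0.964, 2.04 and 2.68 CPM in AS ML210 and 1.25, 3.46 and 2.10 CPM in AS control libraries. Batch 1 was the lowest of the AS libraries under both treatments. The log2 difference was 5.13 (SE 0.452, edgeR adjusted p = 4.88e-06) in controls, 35.0-fold higher, and 5.09 (SE 0.457, edgeR adjusted p = 5.7e-06) with ML210. The AS level was 1.34% to 4.81% of the BE(2) mean, and the part of traces in it was not tested. With batch 1 as the only AS libraries, those with the lowest trace medians, the difference was 5.97 in controls and 6.09 with ML210.

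PDGFRB, the receptor of PDGF-B and PDGF-D, was abundant under both labels. It (ENSG00000113721, chromosome 5, 150113837 to 150155872, minus strand) stood at 119.8, 148 and 179 CPM in BE(2) ML210 and 148, 151 and 168 CPM in BE(2) control libraries, against 79.5, 97.3 and 104 CPM in AS ML210 and 70.6, 105 and 96.1 CPM in AS control libraries. The labels did not overlap under either treatment, but the gap was far smaller than for PDGFRA. The log2 difference was 0.78 (SE 0.174, edgeR adjusted p = 0.00215) in controls, 1.72-fold higher, and 0.67 (SE 0.173, edgeR adjusted p = 0.00552) with ML210. Within batches 1, 2 and 3 it was 1.06, 0.53 and 0.80 in controls and 0.59, 0.60 and 0.78 with ML210, on the scale of log2(CPM + 0.5).

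KIT, the stem cell factor receptor, was as sparse as NTRK2. The gene (ENSG00000157404, chromosome 4, 54657918 to 54740715, plus strand) had 4 reads over the BE(2) ML210 libraries and 5 over the BE(2) controls, against 4 over the AS ML210 libraries and 2 over the AS controls. It did not pass the filter and was not tested. Of the genes that mark mast cells, which use KIT, CPA3 and MS4A2 had no read in any library, while TPSAB1 had at most 6 reads and HDC at most 4 in a library.

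EGFR, the epidermal growth factor receptor, had the highest level per length of the 9 receptors in all 4 groups. It (ENSG00000146648, chromosome 7, 55019021 to 55211628, plus strand) stood at 303, 301 and 287 CPM in BE(2) ML210 and 358, 290.2 and 294 CPM in BE(2) control libraries, against 231, 160 and 155 CPM in AS ML210 and 223, 180 and 163 CPM in AS control libraries. The labels did not overlap, and batch 1 was here the highest of the AS libraries under both treatments. The log2 difference was 0.74 (SE 0.161, edgeR adjusted p = 0.00183) in controls and 0.71 (SE 0.161, edgeR adjusted p = 0.00232) with ML210. With batch 1 as the only AS libraries it was 0.49 in controls and 0.37 with ML210 (edgeR adjusted p = 0.00785 and 0.0318). The opposite-strand gene EGFR-AS1 overlaps 186 exon bases of EGFR and had 2 to 16 reads per library.

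ERBB3, a neuregulin receptor of the EGFR family with a nearly inactive kinase that signals through partners, went the other way. It (ENSG00000065361, chromosome 12, 56076799 to 56103505, plus strand) stood at 1.11, 1.14 and 1.48 CPM in BE(2) ML210 and 2.01, 1.49 and 2.01 CPM in BE(2) control libraries, against 11.6, 4.42 and 6.31 CPM in AS ML210 and 8.04, 5.46 and 4.88 CPM in AS control libraries. All AS libraries lay above all BE(2) libraries, with batch 1 the highest of the AS libraries. The log2 difference was -1.74 (SE 0.321, edgeR adjusted p = 0.000309) in controls and -2.58 (SE 0.334, edgeR adjusted p = 1.35e-05) with ML210. Within batches 1, 2 and 3 it was -1.76, -1.58 and -1.10 in controls and -2.92, -1.58 and -1.78 with ML210, on the scale of log2(CPM + 0.5).

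The remaining members of the EGFR family also divided, in opposite directions. ERBB2, the partner of ERBB3, stood at 9.60 ± 0.469 CPM in BE(2) ML210 and 7.48 ± 0.813 CPM in BE(2) control libraries, against 1.22 ± 0.368 CPM in AS ML210 and 1.17 ± 0.274 CPM in AS control libraries (SD, n = 3 each). Its log2 difference in controls was 2.69 (SE 0.216, edgeR adjusted p = 7.16e-08). ERBB4, a neuregulin receptor with an active kinase, differed by -3.95 (SE 0.459, edgeR adjusted p = 9.15e-06), and LTK, the close relative of ALK, by -3.74 (SE 0.246, edgeR adjusted p = 8.86e-09). These 3 genes were named for their kinship to members after their values were seen.

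**Figure D1:**
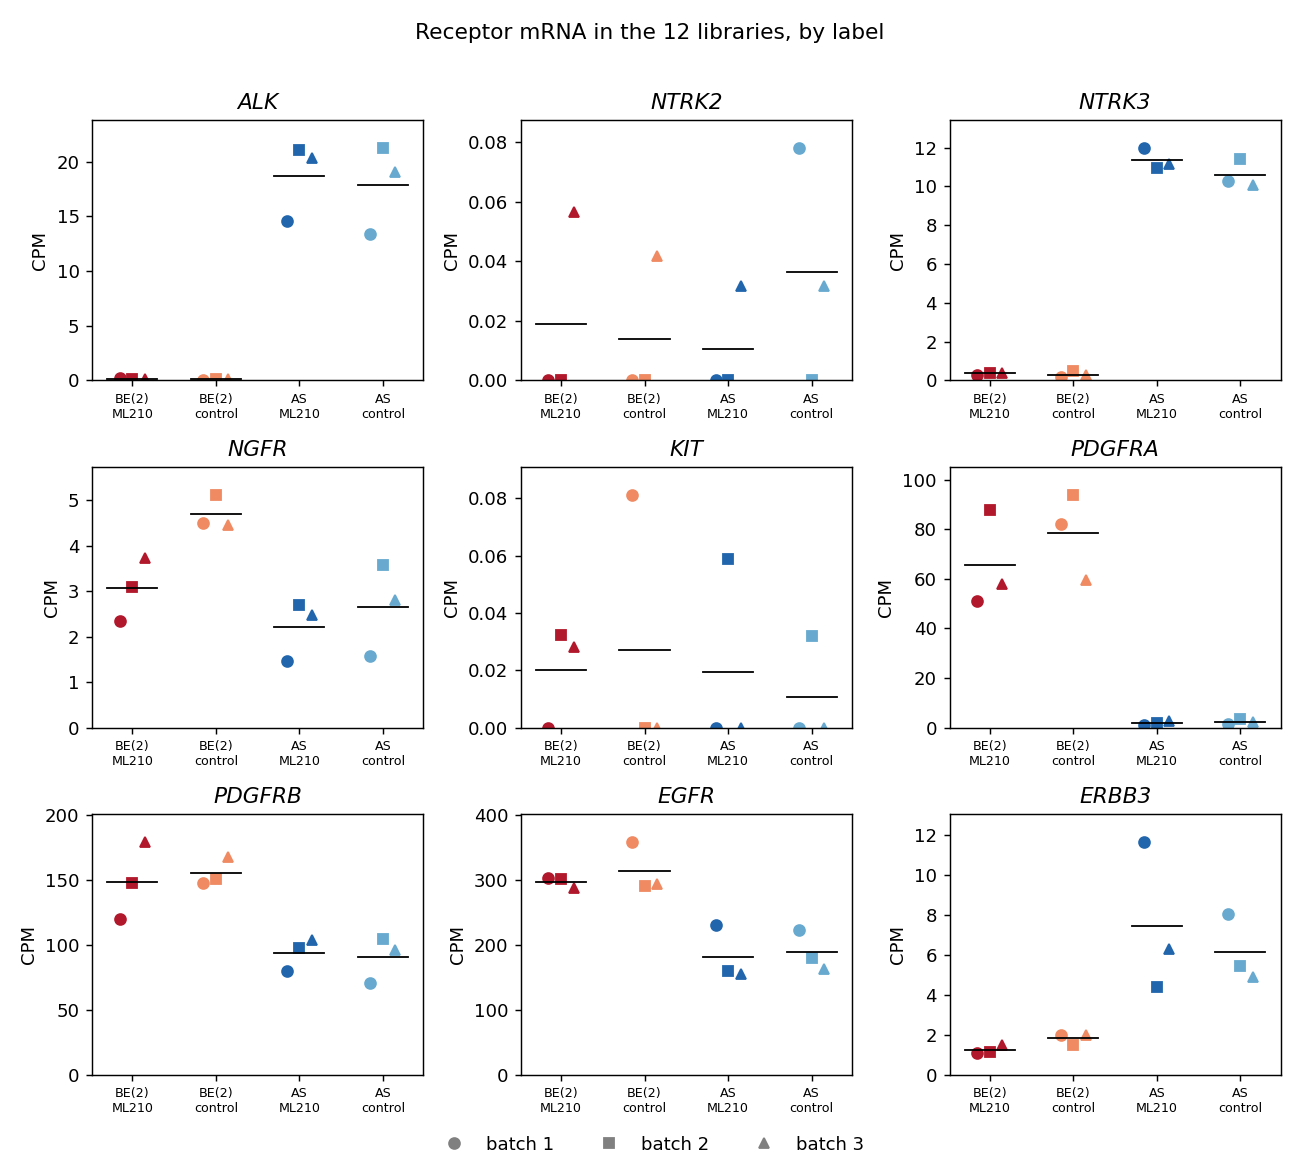
CPM of each receptor (vertical axis, a scale of its own per panel) in the 12 libraries, by line label and treatment; each point is 1 library, its shape gives the batch, and the bar is the mean of 3. ALK, NTRK3 and ERBB3 are low and PDGFRA is high in the BE(2) groups, and ML210 and control libraries of a label overlap except for NGFR and ERBB3 under the BE(2) label, where the ML210 libraries lie lower.

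Of the 7 receptors that passed the filter, all 7 were called in controls, 4 higher (NGFR, PDGFRA, PDGFRB, EGFR) and 3 lower (ALK, NTRK3, ERBB3) under the BE(2) label. The same comparison called 69.2% of the 20304 genes tested, 33.9% higher and 35.2% lower, so a call between the labels was the usual outcome for a gene. With ML210 6 of 7 were called, all but NGFR, beside 69.0% of all genes. The median log2 difference over the 7 receptors was 0.74 in controls, beside -0.0052 over all genes. In controls the libraries of 4 receptors lay wholly above and of 3 wholly below those of the AS label, beside 36.3% and 37.7% of all genes; with ML210 it was 3 and 3, beside 36.7% and 36.4%. As libraries without overlap fix the sign of every same-batch pair, only NGFR with ML210 was free to vary in it. NGFR was higher under the BE(2) label in 3 of 3 such pairs.

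**Figure D2:**
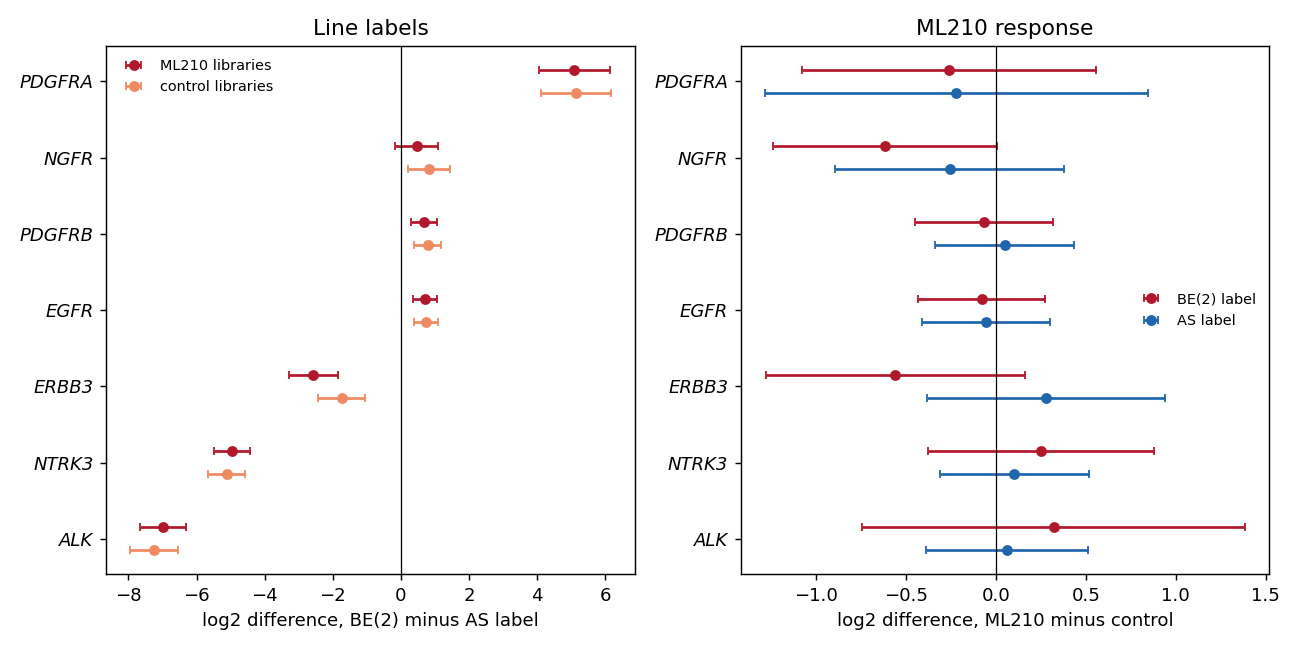
Fitted log2 differences of the 7 tested receptors with 95% intervals (horizontal axis). The left panel gives BE(2) minus AS label in ML210 and control libraries, from 5.13 for PDGFRA to -7.24 for ALK in controls; the right panel gives ML210 minus control under each label, where 0 lies within all intervals.

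Levels were also taken per kilobase of exon, over all annotated exons of a gene joined. Such lengths, 26.75 kb for NTRK3 and 4.15 kb for NGFR, can exceed that of a transcript, so different genes compare only roughly. In AS ML210 libraries NTRK3 averaged 11.4 CPM and NGFR 2.21 CPM, the reverse of their order per kilobase. On this scale the order of the receptors changed between the labels below the top 2 places. In BE(2) ML210 libraries it was EGFR (23.7 CPM per kb), PDGFRB (20.9), PDGFRA (6.74), NGFR (0.738), ERBB3 (0.138), ALK (0.0198) and NTRK3 (0.0135). The BE(2) controls had the same order, with EGFR at 25.1, PDGFRB at 21.8, PDGFRA at 8.06 and NGFR at 1.13 CPM per kb. In AS ML210 libraries it was EGFR (14.5 CPM per kb), PDGFRB (13.1), ALK (2.53), ERBB3 (0.825), NGFR (0.532), NTRK3 (0.425) and PDGFRA (0.195). The AS controls again had the same order, with ALK at 2.43, ERBB3 at 0.678 and PDGFRA at 0.233 CPM per kb. KIT and NTRK2 came last in each group. The ranges of EGFR and PDGFRB overlapped in all 4 groups. ALK and NTRK3 overlapped in the BE(2) groups, and ERBB3 with NGFR and NGFR with NTRK3 in the AS groups, so their order is not fixed by these libraries. In the BE(2) controls ALK and NTRK3 also overlapped KIT, and KIT overlapped NTRK2 in all 4 groups.

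**Figure D3:**
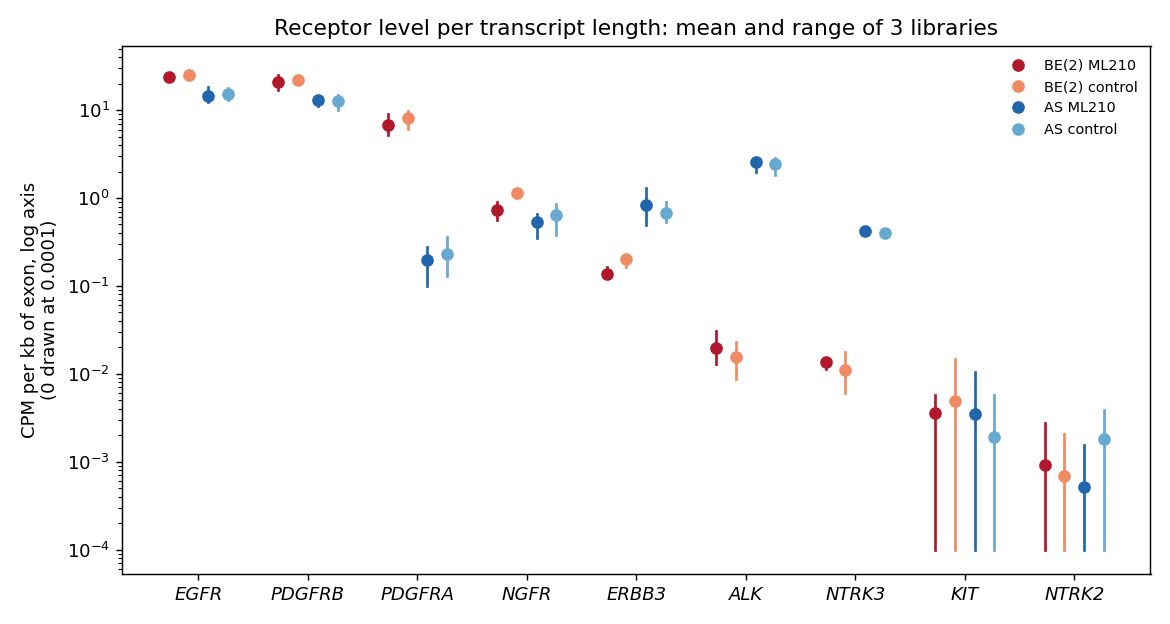
CPM per kilobase of all annotated exons of a gene joined (vertical log axis, 0 drawn at 0.0001) for the 9 receptors. Points are means and lines the range of 3 libraries in each of the 4 groups. EGFR and PDGFRB lead in every group, ALK is the third in the AS groups and PDGFRA the third in the BE(2) groups.

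ML210 moved none of the 7 tested receptors past the threshold under either label. The edgeR test called 0 of 7 under the BE(2) label, beside 1.37% of all genes (279 of 20304; 0.818% higher and 0.557% lower). Under the AS label it called 0 of 7, beside 0.0296% (6 genes; 0.0246% higher and 0.00493% lower). With a term for the batch within each label, the same test called 1386 and 38 of all genes and again 0 receptors. No receptor had an unadjusted p under 0.05 in either response, whereas 2732 and 1398 of all genes did. DESeq2 also called 0 receptors in both, with 1 and 0 at an unadjusted p under 0.05. The 95% intervals of the log2 responses reached from -1.28 to 1.39 under the BE(2) label and from -1.28 to 0.94 under the AS label, so changes of up to those sizes in single receptors are within the error.

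The closest to a response were NGFR and ERBB3 under the BE(2) label. For both, all 3 ML210 libraries lay below all 3 controls, a pattern that 8.18% of all genes showed in that comparison. Under the AS label the groups overlapped for all 7 receptors, whereas 6.01% of all genes lay wholly above and 8.86% wholly below the controls. Within the 3 batches, NGFR was lower with ML210 in 3 of 3 pairs under each label, by log2(CPM + 0.5) differences of -0.81, -0.64 and -0.23 under the BE(2) label and -0.084, -0.35 and -0.16 under the AS label. ERBB3 and PDGFRA were lower in 3 of 3 pairs under the BE(2) label, and no other tested receptor had 1 sign in all pairs of a label. For NGFR and ERBB3 under the BE(2) label these signs follow from the lack of overlap. The share of all genes with 1 sign in all pairs was not determined, so whether such signs are unusual was not tested. NGFR averaged 3.06 ± 0.688 CPM in BE(2) ML210 and 4.69 ± 0.368 CPM in BE(2) control libraries (log2 -0.62, SE 0.288, 95% interval -1.24 to 0.0051, edgeR adjusted p = 0.377). Over the other analyses with an adjusted p, that p lay from 0.0522 with the batch term to 0.713 without BE(2) ML210 1. ERBB3 averaged 1.24 ± 0.208 CPM in BE(2) ML210 and 1.84 ± 0.301 CPM in BE(2) control libraries (log2 -0.56, SE 0.333, edgeR adjusted p = 0.531; from 0.138 to 0.799 over the other analyses). The batch term brought the unadjusted p of 2 receptors under 0.05 in this comparison.

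EGFR and PDGFRB, the abundant members, gave the narrowest intervals. EGFR responded by -0.079 (95% interval -0.43 to 0.28) under the BE(2) label and -0.054 (-0.41 to 0.30) under the AS label. PDGFRB responded by -0.063 (-0.45 to 0.32) under the BE(2) label and 0.049 (-0.34 to 0.43) under the AS label. ALK, which only the AS label expressed above 1 CPM, responded there by 0.061 (-0.39 to 0.51), and NTRK3 by 0.10 (-0.31 to 0.52). The responses of the 2 labels were also set against each other in 1 term. It called 0 of 7 receptors and 0.00493% of all genes (1 gene), with 0 receptors and 1454 of all genes at an unadjusted p under 0.05. ERBB3 had the widest gap between responses, -0.84 (SE 0.452, edgeR adjusted p = 0.752).

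Of 24 ligands of these receptors, 14 passed the filter. Between the controls 12 were called, beside 69.2% of all genes, with 6 higher and 6 lower under the BE(2) label. Among the higher were stem cell factor KITLG (log2 3.97), PDGFC (4.44), midkine MDK (1.76), BDNF (4.87) and EGF (4.11). Lower were NRG1 (-0.91), NRG2 (-0.27), NRG3 (-2.48), PDGFB (-4.83), PDGFD (-1.41) and HBEGF (-0.79). Neuregulins bind ERBB3 and ERBB4, whose mRNA was lower under the same label. The calls of HBEGF and NRG2 were weak: scaling by library totals gave -0.55 (edgeR adjusted p = 0.143) for HBEGF and -0.022 (edgeR adjusted p = 0.846) for NRG2. HBEGF also lost its call in 11 of the other 19 alternatives, among them the fits without AS control 1 or 2 and without BE(2) control 2 or 3, at -0.74, -0.73, -0.75 and -0.63. It did so with little change in value without AS ML210 1, 2 or 3 and without BE(2) ML210 2, at -0.80, -0.80, -0.80 and -0.76. NRG2 lost it without AS control 1 (-0.23) and without BE(2) control 2 or 3 (-0.22 and -0.23).

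Several ligands were measured where their receptor was near 0, and the reverse. KITLG stood at 10.5 ± 1.63 CPM in BE(2) ML210 and 11.6 ± 2.40 CPM in BE(2) control libraries, against 0.594 ± 0.242 CPM in AS ML210 and 0.743 ± 0.125 CPM in AS control libraries, while its receptor KIT had at most 5 reads in a group. BDNF, the TrkB ligand, averaged 1.22 CPM in BE(2) ML210 and 1.05 CPM in BE(2) control libraries, against 0.108 CPM in AS ML210 and 0.0324 CPM in AS control libraries, with NTRK2 near 0 in all. The ALK ligand gene ALKAL1 had no read, and ALKAL2 had 3 and 3 reads over the BE(2) ML210 and control libraries, against 2 and 10 over the AS ML210 and control libraries. PTN and MDK, also among the listed ligands, were measured in every library, and their part in ALK signalling was not tested. Over all libraries PTN stood at 131 to 257 CPM and MDK at 65.4 to 334 CPM. NTF3, which encodes the TrkC ligand NT-3, and the EGFR ligands AREG, EREG and BTC had no read in any library. HBEGF, another EGFR ligand, was measured in every library, at 11.5, 6.43 and 3.79 CPM in BE(2) ML210 and 4.62, 3.77 and 3.14 CPM in BE(2) control libraries, against 4.86, 6.19 and 6.04 CPM in AS ML210 and 7.17, 7.27 and 5.53 CPM in AS control libraries. PDGFC, a ligand of PDGFRA, was high under the same label as its receptor, at 5.87 ± 0.821 CPM in BE(2) control and 0.276 ± 0.181 CPM in AS control libraries.

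No ligand was called with ML210 in either response or in their difference, at 0 of 14. Of all genes 1.37% were called under the BE(2) label, 0.0296% under the AS label and 0.00493% in the difference. EGF under the BE(2) label came nearest, at 4.56, 3.90 and 0.989 CPM in ML210 and 0.584, 0.841 and 0.740 CPM in control libraries (log2 2.12, SE 0.554, edgeR adjusted p = 0.0845). These libraries did not overlap, and 9.22% of all genes lay above the controls in this way.

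**Figure D4:**
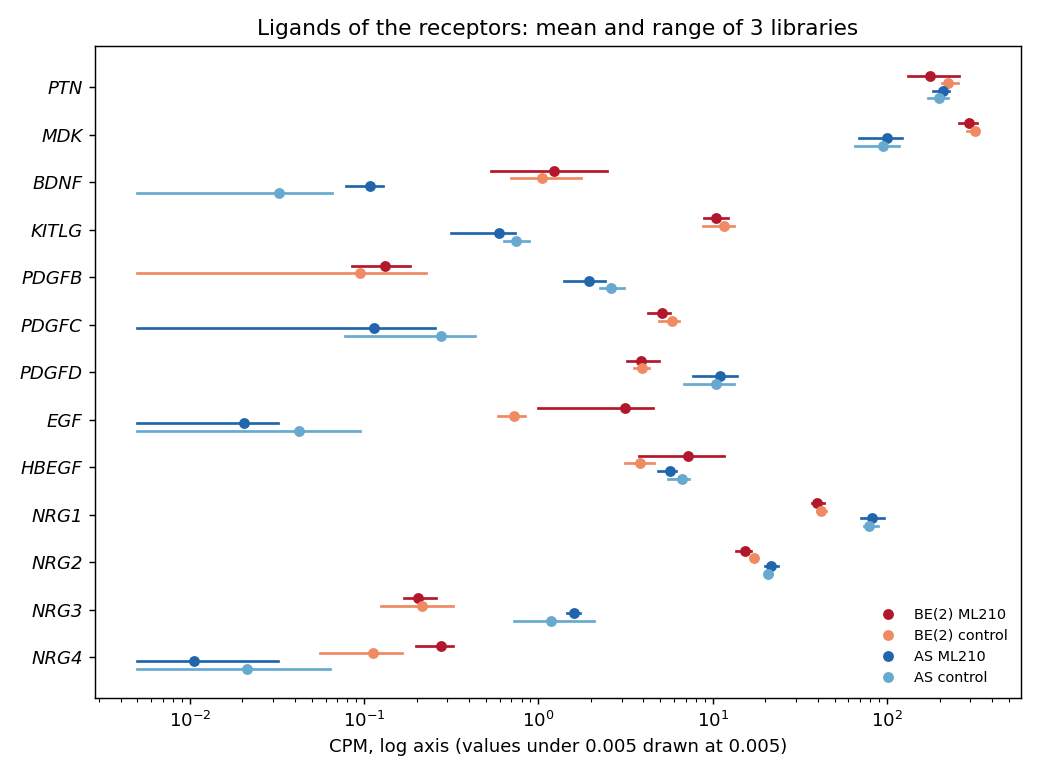
CPM of 13 of the tested ligands (horizontal log axis, values under 0.005 drawn at 0.005); points are means and lines the range of 3 libraries in each group. KITLG, PDGFC, BDNF and EGF lie to the right in the BE(2) groups, and PDGFB, PDGFD, NRG1 and NRG3 in the AS groups.

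Among 50 further receptor tyrosine kinases, 44 passed the filter and 37 were called between the controls, beside 69.2% of all genes. Of these kinases 22 were higher and 15 lower under the BE(2) label, and the median over the 44 was 0.24. The smallest adjusted p were those of the collagen receptor DDR1 (log2 1.39), the WNT5A receptor ROR2 (-2.12), the fibroblast growth factor receptor FGFR4 (3.21) and the apoptotic-cell receptor MERTK (2.88). With ML210 under the BE(2) label 1 of the 44 was called, beside 1.37% of all genes. It was RET, the receptor of GDNF-family ligands. RET stood at 176, 257 and 295 CPM in BE(2) ML210 and 624, 734 and 807 CPM in BE(2) control libraries (log2 -1.57, SE 0.191, edgeR adjusted p = 0.00965), so the groups lay far apart. Under the AS label it stood at 348, 266 and 282 CPM in ML210 and 595, 526 and 468 CPM in control libraries (log2 -0.83, SE 0.188, edgeR adjusted p = 0.398), again without overlap. The difference of these responses was -0.75 (SE 0.264, edgeR adjusted p = 0.621). The RET call held in 19 of 20 alternatives and was lost with batch 1 as the only AS libraries (-1.58, edgeR adjusted p = 0.0603).

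**Figure D5:**
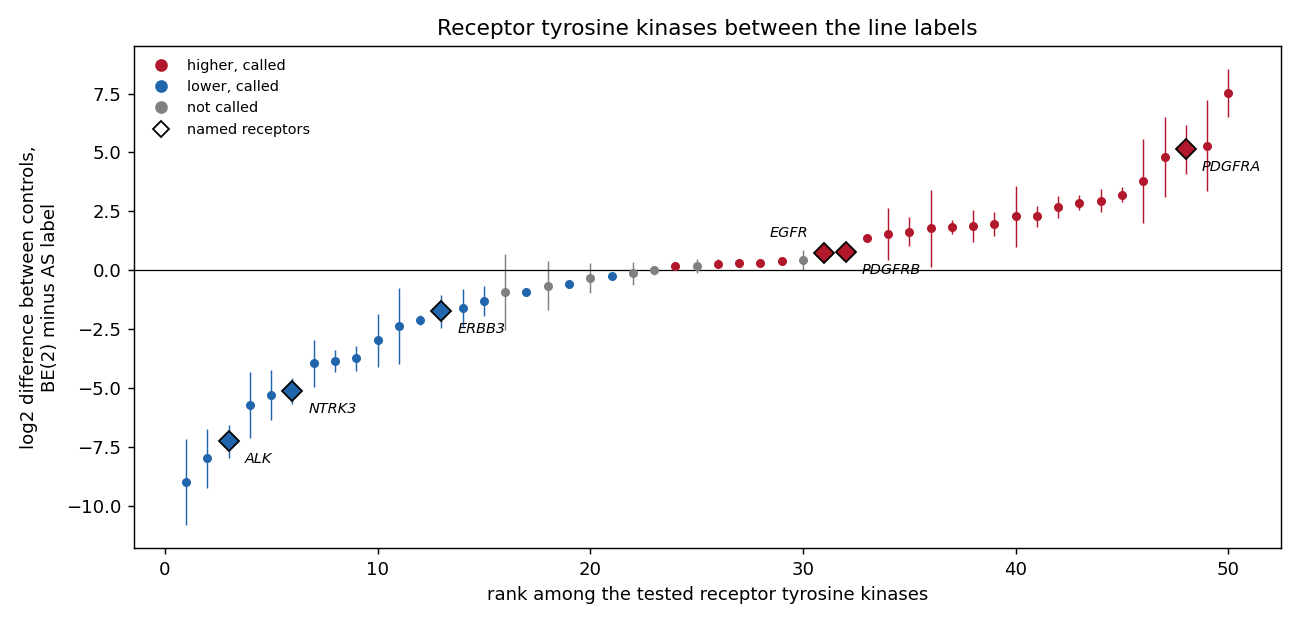
Fitted log2 difference between the controls, BE(2) minus AS label (vertical axis, with 95% intervals), of the 50 tested receptor tyrosine kinases in rank order; diamonds are the receptors described here. ALK (-7.24) and NTRK3 (-5.11) lie near the low end, PDGFRA (5.13) near the high end, and EGFR (0.74) and PDGFRB (0.78) in between.

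Partners of NGFR and the TRK receptors divided evenly. Of 17 listed, 15 were tested, with 6 higher and 7 lower under the BE(2) label in controls, beside 33.9% and 35.2% of all genes. The ML210 responses called 0 of the 15 under either label, beside 1.37% (BE(2) label) and 0.0296% (AS label) of all genes. Sortilin (SORT1, log2 -2.65) and its relative SORCS2 (-7.43), co-receptors of p75 for pro-neurotrophins, were lower, as was KIDINS220 (-0.78), a scaffold of TRK receptors.

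Of 36 adaptors and core components of RAS-MAPK and PI3K signalling, 35 were tested. In controls 14 were higher and 13 lower under the BE(2) label, beside 33.9% and 35.2% of all genes. Here the adaptors of 1 family went in opposite directions: SHC3, the neuronal form, was lower (log2 -2.17) and SHC1, the widely expressed form, higher (1.29). GAB1, a docking protein of EGFR and other receptors, was higher (3.15). With ML210 against control 0 of the 35 were called under either label. Beside this, 1.37% of all genes were called under the BE(2) label and 0.0296% under the AS label. Scaling by library totals, which put the median line difference of all genes at 0.24 in controls and 0.22 with ML210, gave 18 higher and 7 lower for this list, and 60.7% in place of 49.1% of all called genes higher in controls. The counts of the receptors themselves were 4 and 3 under that scaling too.

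Inhibitors of receptor signalling were mostly higher under the BE(2) label in controls. Of 28 tested (of 30 listed) 20 were higher and 5 lower, beside 33.9% and 35.2% of all genes. Their median was 1.10, beside -0.0052 over all genes. The higher ones included LRIG3 (log2 6.98), the MAPK inhibitor SPRY2 (2.18), the RAS inactivator NF1 (2.92) and DOK1 (2.37). Of 19 genes that MAPK signalling is known to induce, 12 were higher and 5 lower, beside the same shares of all genes. MYC (5.38) and SPRED1 (0.75) were among the higher and cyclin D1, CCND1 (-1.42), among the lower. The lists share genes, SPRY2 and SPRED1 among them, so the counts of the MAPK output genes partly repeat those of the inhibitors.

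With ML210 under the BE(2) label, DOK1 was higher (log2 0.54, edgeR adjusted p = 0.0317) and DUSP4, a phosphatase that inactivates MAP kinases, was higher (0.48, edgeR adjusted p = 0.0188). The adaptor gene SH2B3 and the RAS pathway inhibitor SPRED1 were lower, each by -0.32 (edgeR adjusted p = 0.0364 and 0.0332). These were 3 of the 28 inhibitors and 2 of the 19 MAPK output genes, SPRED1 being in both, beside 1.37% of all genes. No gene of these lists was called under the AS label, beside 0.0296% of all genes. The 4 calls were not firm, holding in 10 (DOK1), 13 (DUSP4), 9 (SH2B3) and 10 (SPRED1) of 20 alternatives, with unchanged signs. Leaving out 1 library ended them as follows. DOK1 was lost without any BE(2) control, without BE(2) ML210 1 or 2 and without AS ML210 2 or 3, at values from 0.39 to 0.55. DUSP4 was lost without BE(2) control 1 or 3 and without BE(2) ML210 1 or 2, at 0.39 to 0.50. SH2B3 was lost without BE(2) control 1 or 2, BE(2) ML210 1 or 2, AS control 2 or any AS ML210 library, at -0.37 to -0.25. SPRED1 was lost without BE(2) control 1 or 3, BE(2) ML210 1 or 2, AS control 2 or AS ML210 2 or 3, at -0.35 to -0.27.

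Markers of cell state moved with the receptors between the labels, and their part in the receptor differences was not tested. Of 10 adrenergic markers 9 were lower and 1 higher under the BE(2) label in controls, beside 35.2% and 33.9% of all genes. The lower ones included the catecholamine enzymes TH (log2 -9.60) and DBH (-6.96) and the factors PHOX2A (-2.24) and ISL1 (-1.43). Their summed level was 1029 to 1489 CPM in BE(2) ML210 and 1177 to 1572 CPM in BE(2) control libraries, against 7177 to 7374 CPM in AS ML210 and 7780 to 8161 CPM in AS control libraries. Of 10 mesenchymal markers 9 were higher and 0 lower, among them TBX18 (3.52), VIM (2.39), FN1 (3.32) and YAP1 (6.34), with sums of 1524 to 1546 and 1448 to 1687 CPM in BE(2) ML210 and control libraries, against 239 to 283 and 240.2 to 282 CPM in AS ML210 and control libraries. PHOX2A was also lower with ML210 under the BE(2) label (-0.69, edgeR adjusted p = 0.017), 1 of the 10 adrenergic markers, beside 1.37% of all genes called. It lost that call without BE(2) control 2 or 3 (-0.64 and -0.71) and without BE(2) ML210 2 (-0.76).

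Some markers of other cell types were also higher under the BE(2) label, where 33.9% of all genes were higher and 35.2% lower in controls. The collagen gene COL1A1 averaged 858 CPM in BE(2) ML210 and 1011 CPM in BE(2) control libraries, against 24.6 CPM in AS ML210 and 33.3 CPM in AS control libraries, and the leukocyte gene PTPRC averaged 214 and 289.9 CPM in BE(2) ML210 and control libraries, against 1.08 and 0.987 CPM in AS ML210 and control libraries. PTPRC had 0 reads in AS ML210 1 and AS control 1 and 76 to 133 in the other AS libraries. COL1A1 stood at 3.68 and 4.33 CPM in these batch 1 libraries, its lowest values. PMP22 gave most of the Schwann cell sum and RGS5 most of the fibroblast and pericyte sum in all 4 groups. PTPRC gave nearly all of the mast cell and blood sum in the BE(2) groups, where CD14 was lower. The leukocyte genes SPI1 and CD68 had at most 5 and 7 reads in a library. Of 8 Schwann cell markers 4 were tested, 2 higher and 1 lower, and SOX10, the defining factor, averaged at most 0.019 CPM in a group; the sums were 50.7 to 54.7 and 46.6 to 46.9 CPM in BE(2) ML210 and control libraries, against 26.9 to 36.0 and 26.3 to 35.3 CPM in AS ML210 and control libraries. Of 9 fibroblast and pericyte markers 8 were tested, 5 higher and 2 lower, with sums of 4723 to 6062 and 6556 to 7088 CPM in BE(2) ML210 and control libraries, against 3892 to 4611 and 4018 to 4851 CPM in AS ML210 and control libraries. COL1A2 averaged at most 0.116 CPM in any group. Of 8 epithelial markers 6 were tested, 3 higher and 2 lower, with sums of 192 to 296 and 206 to 281 CPM in BE(2) ML210 and control libraries, against 10.3 to 12.7 and 12.9 to 16.5 CPM in AS ML210 and control libraries. EPCAM averaged at most 0.220 CPM. Of 8 mast cell and blood markers 2 were tested, 1 higher and 1 lower, with sums of 163 to 289 and 264 to 329 CPM in BE(2) ML210 and control libraries, against 1.57 to 3.03 and 1.27 to 3.29 CPM in AS ML210 and control libraries. The part of other cells in the receptor differences was not tested.

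The genes whose log2 CPM profile over the 12 libraries was most like that of a receptor were found among 10919 named genes, by the root mean square difference of centred values. They were STOM and NRCAM for ALK (0.39 and 0.42), ZNF320 and CCDC88C for NTRK3 (0.21 and 0.24), and SEMA3F and DUSP6 for NGFR (0.23 and 0.24). SOCS3 and MFAP4 were nearest to PDGFRA (0.23 and 0.24), PTPRK and PPP2R3B to PDGFRB (0.11 and 0.11), TNS1 to EGFR (0.10), and CYSLTR2 and ARVCF to ERBB3 (0.25 and 0.26). As the line label sets most of each profile, likeness here mainly means a similar difference between the labels: STOM differed by -6.88 and SOCS3 by 5.04 in controls.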

How the data were processed

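The deposited values were raw counts per gene from stranded mRNA libraries, not normalized by the authors. Per the submitters' processing notes, the reads passed through FastQC and Trimmomatic (version number 1.4 there), were aligned by HISAT2 (2.2.1) to GRCh38 and were counted by featureCounts (2.0.5). Annotation, strand setting and treatment of multi-mapping reads: not given in the sources used here, so reads of overlapping genes may be mixed. Totals of 54047293 to 83481963 reads per library set the depth; Poisson intervals and the floor of 3 reads cover counting error only. Exon lengths, each the union of all annotated exons of a gene, and positions are from GENCODE 29. Promoter windows are from RefSeq (GRCh38.p14).

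Counts of all 12 libraries were fitted in edgeR 4.0.16 (R 4.3.3) with 1 coefficient per group, filterByExpr, TMM scaling and the robust quasi-likelihood test (8 residual degrees of freedom, two-sided). P-values were adjusted by Benjamini-Hochberg over the 20304 genes tested, and a gene was called under 0.05. CPM uses TMM-scaled totals. Simulated counts with known changes were used to test the fit. Alternatives were RLE scaling, library totals, no filter, DESeq2 1.42.0, fits of 2 groups, a batch term, and each library left out. Added after the data were seen were fits with AS libraries of batch 1 only and of batches 2 and 3 only.

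The batch label equals the replicate number, so same-numbered libraries were taken as pairs. Deviations of same-batch libraries correlated at 0.0957, 0.12 and 0.169 under the BE(2) label and 0.357, 0.0677 and 0.121 under the AS label. Between BE(2) and AS controls they correlated at -0.0821, -0.00276 and -0.0274, so pairs across the labels showed no shared deviation. The receptors and lists were chosen with earlier results of these data known. Named from each list were up to 4 genes with the smallest adjusted p between controls, those called with ML210, and those needed to state small counts; genes outside the rule are said to be so, and some genes that meet it are not reported here. Nearest profiles needed a mean log2 CPM of 2 (prior count 2).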

Additional observations from a re-analysis of the deposited data

How the results depend on the processing

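Between the line labels, 277 of 280 receptor values under an alternative kept direction and call. The exceptions are the NGFR values given above: 0.55 and 0.78 lost the call, and 1.07 with batch 1 as the only AS libraries gained it. Leaving out 1 library gave 6 to 7 receptors called in controls and 6 in ML210 libraries. The batch term (replicate block) changed no receptor call.

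For ML210, no receptor was called in any of 412 alternative values, and 40 changed sign around 0; the cause was not tested. With batches 2 and 3 only, the responses under the BE(2) label were -0.39 (ALK), 0.035 (PDGFRB) and 0.011 (EGFR), and the differences of responses -0.43 (ALK), 0.17 (PDGFRA), 0.033 (PDGFRB) and 0.14 (EGFR). With AS libraries of batch 1 only, EGFR responded by 0.043 under the AS label and the PDGFRA difference of responses was 0.12. Leaving out 1 library gave ranges that cross 0. Under the BE(2) label these were ALK -0.15 to 0.67, NTRK3 -0.033 to 0.73, PDGFRB -0.24 to 0.061 and EGFR -0.15 to 0.017. Under the AS label they were ALK -0.11 to 0.21, NGFR -0.53 to 0.021, PDGFRA -0.54 to 0.22, PDGFRB -0.10 to 0.17, EGFR -0.26 to 0.084 and ERBB3 -0.20 to 0.55. For the difference of responses they were ALK -0.23 to 0.59, NTRK3 -0.15 to 0.61, PDGFRA -0.48 to 0.28, PDGFRB -0.30 to 0.038 and EGFR -0.16 to 0.18.

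Counts of all genes called depended more on the fit. ML210 under the BE(2) label called 279 genes, and 556 with no filter, 790 with DESeq2, 51 with only the 2 groups, 1386 with the replicate block, 27 with AS libraries of batch 1 only, 43 with batches 2 and 3 only, and 48 to 1242 without 1 library. Under the AS label it called 6, and in the same order 33, 52, 21, 38, 0 and 15, and 3 to 13 without 1 library. The difference of responses called 1 gene, and 24 with no filter, 45 with DESeq2, 85 with the replicate block, 0 with either restriction by batch, and 1 to 156 without 1 library. A fit with AS libraries of batch 1 only leaves those groups with 1 library each, assumed to vary like the others. NTRK2 and KIT, at 0 to 6 reads per library, are limited by depth.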
